A study of Mus musculus and Homo sapiens with 20 samples.

Results

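The 10 pluripotency genes described here are Pou5f1, Nanog, Sox2, Klf4, Esrrb, Tfcp2l1, Prdm14, Zfp42, Lin28a and Dppa3, taken by gene symbol out of 21938 protein-coding mouse genes (mm10, GENCODE). In the human cells the 10 upper-case symbols were taken out of 20033 protein-coding genes (hg38, GENCODE). They were picked by name as known pluripotency genes, with earlier results of these data known. For each gene and each library, the share of the promoter and of the whole gene that lay under called peaks was computed, where the promoter is 1 kb on each side of the annotated gene start.

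The measurements were CUT&Tag peak lists for 2 histone marks, H2AK119ub and H3K27me3, in 20 libraries that form 10 groups of 2. Mouse embryonic stem (mES) cells, wild type (WT) or Tet2-/- (KO), were grown in serum with LIF, CHIR99021 and PD0325901 on gelatin after feeder cells had been cleared. They were obtained from another laboratory, and their pluripotency had been shown there by chimaera formation. The second mouse cell type was the c-Kit+ fraction of lineage-depleted bone marrow (haematopoietic stem and progenitor cells, HSPCs) of WT C57BL/6 mice and of Tet2-/- mice backcrossed to that strain, both sexes, 6 to 8 weeks old. K562 cells, a line from a human leukaemia, received siControl or siMBD6 siRNA by nucleofection and were profiled for H2AK119ub alone. The comparisons ask what loss of Tet2 or MBD6 depletion, and the change of cell type, went with at these genes. The labels do not say whether replicates were separate cultures or animals, so p-values cover only the spread between these libraries.

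Pluripotency rests on a small circuit of transcription factors. Oct4 (the product of Pou5f1), Sox2 and Nanog bind one another's genes and many shared enhancers, and Klf4, Esrrb, Tfcp2l1 and Prdm14 hold cells in the naive state that LIF and kinase inhibitors maintain. Zfp42 (Rex1), Lin28a and Dppa3 (Stella) are long-used marker genes of pluripotent cells, and the circuit is shut off when cells leave the pluripotent state. Polycomb repressive complex 1 places H2AK119ub and Polycomb repressive complex 2 places H3K27me3, and both marks are best known at promoters of silent developmental genes.

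The lists hold positions only, with no read count, so depth is unknown and coverage says where a mark was called, not how much of it there was. Outside unplaced contigs, peaks added up to 235 to 260 Mb for mES H2AK119ub, 149 to 232 Mb for mES H3K27me3, 139 to 177 Mb for HSPC H2AK119ub, 165 to 201 Mb for HSPC H3K27me3 and 132 to 190 Mb for K562. In mES H3K27me3 the KO 2 list was the shortest (149 Mb), and in HSPC H2AK119ub the WT 2 list was (139 Mb). A width of 501 bp was the commonest in every list (30.4% to 41.4% of its peaks), so a promoter value of 25.1% is the mark of 1 such peak. Peak lists cannot show a deletion; the Tet2 promoter carried no peak in the 8 mES lists, had HSPC H2AK119ub coverage of 0% and 32.6% in WT and 61.0% and 68.2% in KO, and the MBD6 promoter went from 0% in both siControl lists to 25.1% and 40.8% in the siMBD6 lists. Groups are called non-overlapping here when every library of one lies above every library of the other.

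The sequence just upstream of the RefSeq start differs sharply between members, which is shown because CpG-rich DNA is a known recruiting ground for Polycomb complexes. The 250 bases before the RefSeq start of 4 genes (GRCm38.p6, the mm10 assembly) are printed 5′ to 3′ on the gene's own strand, with each CG pair in capitals. Sox2 lies at chr3:34649745-34649994 on the plus strand, Klf4 at chr4:55532476-55532725 on the minus strand, Nanog at chr6:122707239-122707488 on the plus strand and Pou5f1 at chr17:35505782-35506031 on the plus strand.
Sox2: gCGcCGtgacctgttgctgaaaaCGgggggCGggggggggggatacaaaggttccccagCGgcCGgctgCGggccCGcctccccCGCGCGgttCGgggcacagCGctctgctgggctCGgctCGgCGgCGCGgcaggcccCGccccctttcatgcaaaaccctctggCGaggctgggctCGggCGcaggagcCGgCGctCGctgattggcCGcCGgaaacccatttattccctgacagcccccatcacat
Klf4: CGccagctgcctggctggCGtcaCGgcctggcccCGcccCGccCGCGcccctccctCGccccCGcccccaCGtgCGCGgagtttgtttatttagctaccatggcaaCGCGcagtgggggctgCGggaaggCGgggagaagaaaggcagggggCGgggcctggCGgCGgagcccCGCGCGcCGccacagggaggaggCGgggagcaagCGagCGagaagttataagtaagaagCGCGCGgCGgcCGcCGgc
Nanog: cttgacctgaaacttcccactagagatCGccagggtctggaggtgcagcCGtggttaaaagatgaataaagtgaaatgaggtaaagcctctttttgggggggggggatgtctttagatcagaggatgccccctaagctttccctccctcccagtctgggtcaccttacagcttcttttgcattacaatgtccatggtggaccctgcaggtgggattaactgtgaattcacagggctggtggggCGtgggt
Pou5f1: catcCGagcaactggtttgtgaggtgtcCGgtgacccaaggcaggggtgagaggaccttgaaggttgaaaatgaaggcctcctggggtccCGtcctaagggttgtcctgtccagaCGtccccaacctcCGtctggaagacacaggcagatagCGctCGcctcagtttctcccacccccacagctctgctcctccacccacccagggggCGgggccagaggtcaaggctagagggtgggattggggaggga

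Klf4 held 32 CG pairs and Sox2 27 in these 250 bases, Pou5f1 held 8 and Nanog 3, against a median of 6 over 32851 RefSeq mouse promoters, of which 7.87% held none. RefSeq promoters matched 8 of the 10 genes, with 16 CG pairs for Tfcp2l1, 9 for Zfp42, 7 for Lin28a and 6 for Esrrb. Prdm14 and Dppa3 were not in the promoter table. A second RefSeq start, not printed, held 6 CG pairs for Pou5f1, 2 for Nanog and 3 for Esrrb. RefSeq starts can differ from the GENCODE starts used elsewhere. The Sox2 bases end before its GENCODE start at 34650405, and the Pou5f1 bases run past its own at 35506018. CG reads the same on both strands, so each pair was counted once. Over the full 2-kb promoter the observed-to-expected CpG ratio was 0.86 for Klf4 and 0.82 for Sox2, at percentiles 96.2 and 93.2 of all genes, and lowest for Pou5f1 (0.26), Esrrb (0.30) and Nanog (0.31), with a median of 0.47 over all genes.

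Between the 2 mouse cell types the pluripotency promoters differed most in H3K27me3. In HSPCs 7 of the 10 promoters (Pou5f1, Nanog, Sox2, Klf4, Esrrb, Prdm14 and Lin28a) were covered over their whole 2 kb in all 4 libraries, against 14.0% of all promoters. In mES cells 1 of 10, Dppa3, was fully covered in all 4 libraries (11.7% of all promoters), and Pou5f1, Nanog, Tfcp2l1 and Lin28a had no H3K27me3 peak in any of them (46.1% of all promoters). The 8 libraries did not overlap for 7 members, which were higher in HSPCs (22.8% of all promoters were), and for Dppa3, which was lower (8.70% were). The median difference was 93.2 points over the 10 members and 0 over all genes. Each non-overlapping member had p = 0.0556 in the two-sided exact permutation test, the smallest that its 36 arrangements within genotype allow, and an adjusted p of 0.165 over all genes, so no gene could pass 0.05.

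**Figure D1:**
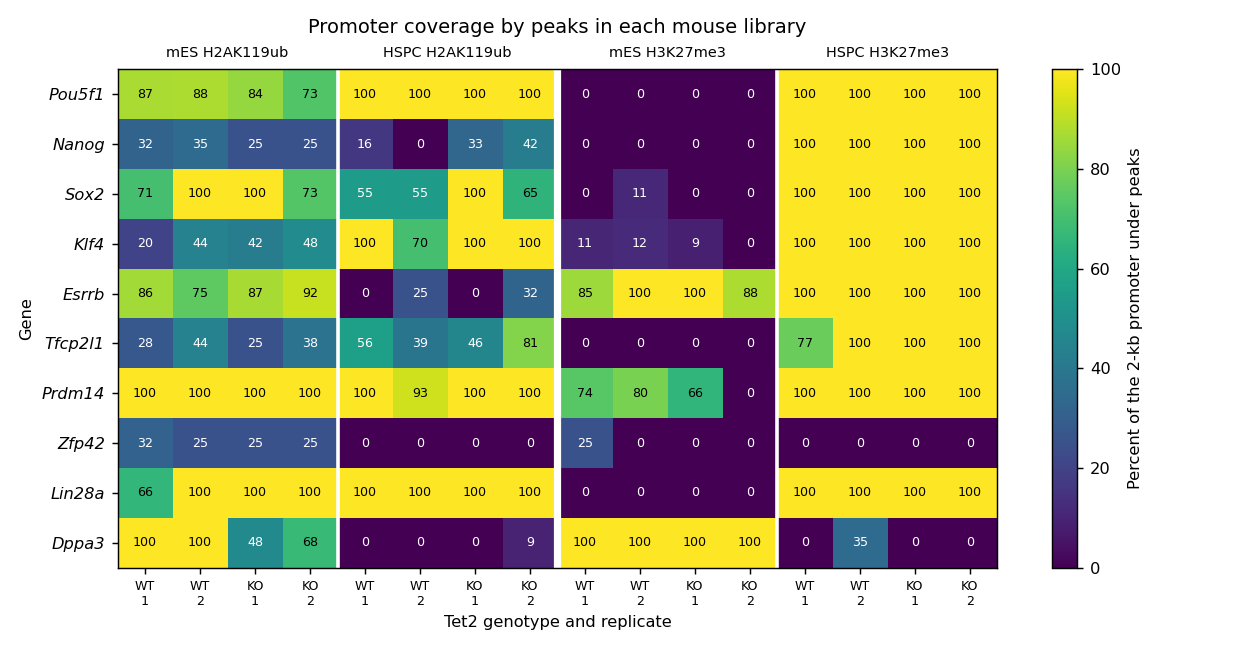
Percent of the 2-kb promoter under peaks for each of the 10 genes (rows) in each of the 16 mouse libraries (columns, grouped by mark and cell type, with Tet2 genotype and replicate below); cell numbers are rounded percentages. The HSPC H3K27me3 block is at 100 in all 4 libraries for 7 genes, while Zfp42 is at 0 there and Dppa3 runs from 0 to 35.0.

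Pou5f1 (ENSMUSG00000024406.16, chr17:35506018-35510772, plus strand) encodes Oct4, the factor without which the pluripotent state is lost. Its H3K27me3 promoter coverage was 0% in all 4 mES lists and 100% in all 4 HSPC lists. In mES cells the nearest H3K27me3 peak lay 30.9, 10.7, 31.3 and 31.6 kb from the start in WT 1, WT 2, KO 1 and KO 2. In HSPCs a single peak spanned the whole gene, 29.0 and 28.8 kb wide in WT and 15.5 and 13.6 kb wide in KO. The HSPC domain reached 5.55 to 6.00 kb downstream of the start in all 4 lists and differed on its upstream side, 23.0 kb in both WT lists against 9.83 and 8.10 kb in KO. The nearest neighbour, Tcf19, whose start lies 10.8 kb away, had a mean H3K27me3 promoter coverage of 6.26% in mES cells (0% to 25.1%) and 95.7% in HSPCs (83.0% to 100%). H2-Q10, 35.9 kb away on the other side, was at 100% in all 8 lists.

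Sox2 (ENSMUSG00000074637.7, chr3:34650405-34652461, plus strand) is Oct4's partner in DNA binding, a gene of a single exon inside the non-coding Sox2ot locus. Its H3K27me3 promoter coverage was 0%, 11.2%, 0% and 0% in mES WT 1, WT 2, KO 1 and KO 2, and 100% in each HSPC list. The domain over it was the widest at any member in HSPCs, 38.7 and 39.3 kb in WT and 48.4 and 48.3 kb in KO. It covered the whole gene in all 4 HSPC lists, and no mES list had any H3K27me3 within the gene. The next protein-coding start, Dnajc19, lies 569 kb away and carried 25.1% in each HSPC list, a single minimal peak.

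Nanog (ENSMUSG00000012396.12, chr6:122707489-122714633, plus strand), the homeobox factor that stabilises the naive state, was at 0% in all 4 mES lists and 100% in all 4 HSPC lists. Its HSPC domain was narrow beside those of Pou5f1 and Sox2, 8.37 and 3.67 kb in WT and 4.40 and 4.29 kb in KO, and it reached 2.63 and 1.67 kb into the gene in WT and 1.94 and 1.68 kb in KO, which overlap. All H3K27me3 peaks together covered 45.8% and 40.5% of the gene for WT and 27.2% and 32.3% for KO, which do not, with a mean of 43.1% ± 3.78 (SD, n = 2) in WT and 29.7% ± 3.62 (n = 2) in KO (exact permutation test, two-sided, p = 0.333, the smallest that 6 assignments allow). The promoter of Slc2a3, 94.2 kb downstream, averaged 54.6% in mES cells and 38.9% in HSPCs, with ranges of 25.1% to 78.0% and 0% to 59.1% that overlapped.

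Klf4 (ENSMUSG00000003032.8, chr4:55527143-55532466, minus strand), a zinc finger factor of the naive state, had H3K27me3 promoter coverage of 10.6%, 12.2%, 8.60% and 0% in mES WT 1, WT 2, KO 1 and KO 2, from a peak inside the gene that began 0.757 to 0.829 kb past the start in the 3 lists that had it. In HSPCs the promoter was at 100% in all 4 lists, under a peak of 5.70 to 7.85 kb. The 2 cell types did not overlap.

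Tfcp2l1 (ENSMUSG00000026380.10, chr1:118627945-118685168, plus strand), a factor downstream of LIF and STAT3, had no promoter H3K27me3 in mES cells, where the nearest peak was 67.5 to 122 kb away. In HSPCs its promoter was covered over 77.2%, 100%, 100% and 100%, by a peak of 1.65 to 3.74 kb. That peak did not spread: 2.80% to 4.60% of the 57.2-kb gene was covered.

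Prdm14 (ENSMUSG00000042414.7, chr1:13113457-13127163, minus strand), a PR-domain protein that restrains DNA methyltransferase genes in naive cells, was the member with the most H3K27me3 in mES cells after Dppa3 and Esrrb. Its promoter values there were 74.2%, 80.0%, 65.7% and 0%, with the 0% in the KO 2 list, the shortest of the 4. In HSPCs all 4 lists were at 100%, and the peak was 14.0 to 19.8 kb wide, against 3.20 to 3.89 kb in the 3 mES lists that had one.

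Esrrb (ENSMUSG00000021255.17, chr12:86361117-86521628, plus strand), an orphan nuclear receptor that can stand in for Nanog, did not separate the cell types at its gene start. H3K27me3 covered 85.2%, 100%, 100% and 87.8% of that promoter in mES cells and 100% in each HSPC list (mean 93.2% ± 7.88 against 100%, n = 4 each), and the lists overlapped. The gene is 161 kb long with several annotated starts. The start of its principal transcript, 60.5 kb downstream, was at 100% for H3K27me3 in all 8 lists, while a start 109 kb downstream was at 0% in all 4 mES lists and 100% in all 4 HSPC lists. Over the whole gene, mES coverage was 29.2% to 41.4% and HSPC coverage 67.6% to 79.3%, without overlap.

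Lin28a (ENSMUSG00000050966.9, chr4:134003330-134018841, minus strand) encodes an RNA-binding protein that blocks let-7 maturation. Its promoter was at 0% for H3K27me3 in all 4 mES lists, with the nearest peak 14.9 to 15.9 kb off, and at 100% in all 4 HSPC lists. The HSPC domain was 12.0 and 19.1 kb wide in WT and 22.0 and 19.9 kb in KO. The promoter of Dhdds, 17.9 kb away, had no H3K27me3 in mES cells and 31.4% to 47.2% in HSPCs, partial where Lin28a was full.

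The remaining pair did not follow the others. Zfp42 (ENSMUSG00000051176.6, 11.9 kb on the minus strand of mouse chromosome 8), a zinc finger gene and classic naive marker, was at 0% in all 4 HSPC lists for both marks. The stretch without any H3K27me3 peak around its start was 3.24 to 3.25 Mb long in the HSPC lists and held 7 protein-coding starts, its own among them. In mES cells its H3K27me3 values were 25.1%, 0%, 0% and 0%. The promoters of the flanking genes Triml2 and Adam26b were at 0% in all 16 lists.

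Dppa3 (ENSMUSG00000046323.8, chr6:122626410-122630272, plus strand), which protects the maternal genome from demethylation in the zygote, had the reverse pattern at its promoter. H3K27me3 covered 100% of its promoter in all 4 mES lists and 0%, 35.0%, 0% and 0% in HSPC WT 1, WT 2, KO 1 and KO 2. The mES peak was 14.9 and 17.8 kb wide in WT and 10.6 and 8.79 kb in KO. In HSPCs the gene body of Dppa3 still carried H3K27me3, over 42.9% and 71.4% of the gene in WT and 42.9% and 37.5% in KO, from a peak that began 0.299 kb past the start in WT 2 and 1.16 kb past it in WT 1. Among all promoters, 0.638% had a difference between HSPC and mES cells as low as that of Dppa3 (8.76% ± 17.5 against 100%, n = 4 each).

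**Figure D2:**
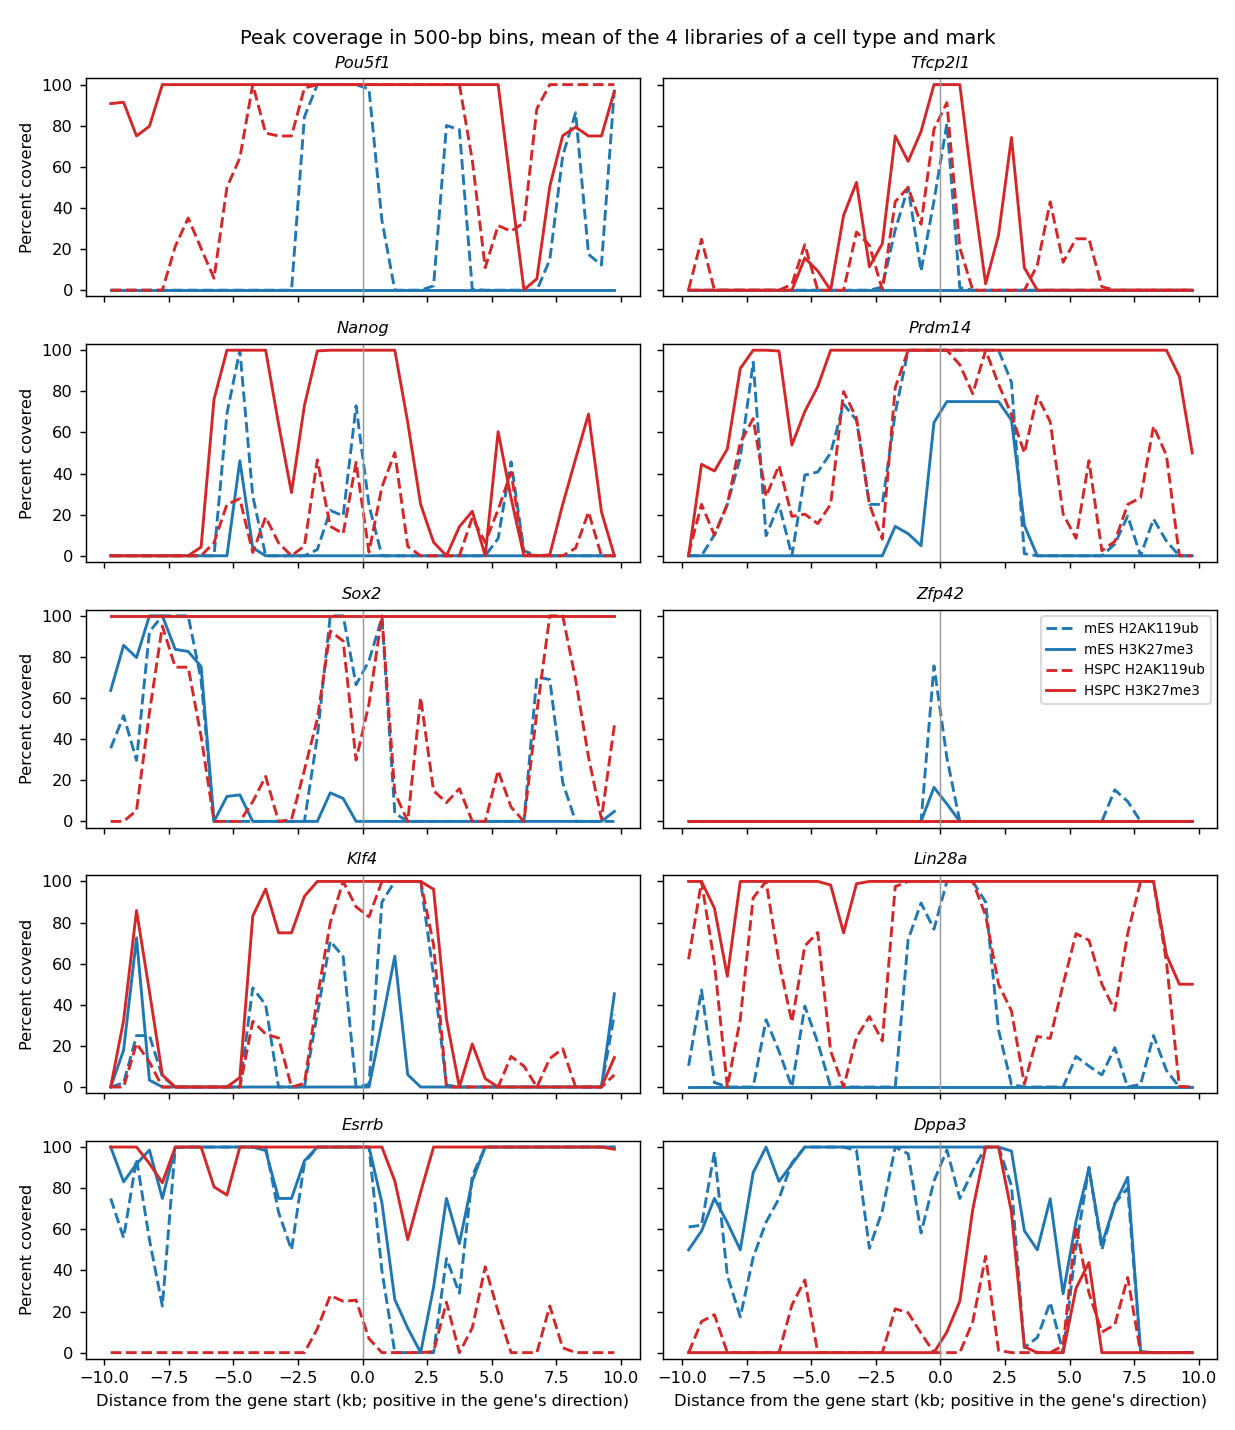
Percent covered in 500-bp bins (vertical axis) against distance from the gene start in kb (horizontal axis, positive in the direction of the gene) for the 10 genes, as the mean of 4 libraries; blue is mES, red HSPC, solid H3K27me3, dashed H2AK119ub. The solid red line stays at 100 from 10 kb upstream to 10 kb downstream at Sox2, reaches 100 at Tfcp2l1 just around the start and is flat at 0 at Zfp42, and Dppa3 is the gene where the solid blue line is high and the solid red line is low at the start.

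A small class of promoters was bare in one cell type and full in the other. Pou5f1, Nanog and Lin28a belong to the 181 promoters (0.825% of all) that had no H3K27me3 in any of the 4 mES lists and full coverage in every HSPC list. Over whole gene spans, 8 members were non-overlapping and higher in HSPCs (27.1% of all genes) and Dppa3 was lower (17.3% of all genes), with the same smallest p of 0.0556.

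H2AK119ub did not divide the members by cell type in the same way. In mES cells a peak touched the promoter of all 10 members in all 4 lists, against 59.3% of all promoters, and the median of the members' means was 80.9% against 38.3%. Promoters covered over at least 50% in all 4 lists were 5 of the 10 members and 32.4% of all. In HSPCs 6 of 10 were touched in all 4 lists (59.0% of all promoters), with a median of 62.1% against 48.4%. The mES lists were longer, and with mouse lists of equal peak number 7 members were touched in mES cells (47.2% of all promoters). The HSPC count was then 6 (55.1%). With peaks of at least 1 kb the counts were 7 (36.5%) and 4 (37.1%). A peak also touched 12 of 12 Polycomb targets and 9 of 10 HSPC markers in every mES list. The cell types did not overlap for Pou5f1 and Klf4, which were higher in HSPCs (15.6% of all promoters were), and for Esrrb, Zfp42 and Dppa3, which were lower (8.57% were). The smallest adjusted p over all genes was 0.200.

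At Pou5f1 the mES H2AK119ub values were 87.4%, 87.6%, 84.1% and 72.9%, from a peak that reached 2.32 to 2.47 kb upstream and stopped 0.456 to 0.751 kb into the gene. All 4 HSPC lists were at 100%, with peaks of 6.95 to 9.74 kb, and 85.0% to 99.2% of the gene was covered against 24.4% to 37.9% in mES cells. Each mES list also had a separate peak further inside the gene, so the mES coverage came from at least 2 peaks with a bare stretch between them.

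At Klf4 the mES peaks left the start itself bare, the nearest lying 0.474 to 0.598 kb away in each of the 4 lists, for promoter values of 20.2%, 44.2%, 41.9% and 48.4%. In HSPCs 3 lists were at 100% and WT 2, the shortest list, at 70.5%. The difference in means was 53.9 points (38.7% ± 12.6 against 92.6% ± 14.8, n = 4 each, exact permutation p = 0.0556). Sox2 showed a bare start of the same kind in some lists, 2 in mES cells and 3 in HSPCs, with overlapping promoter values (mES 70.7% to 100%, HSPC 54.8% to 100%).

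Esrrb fell on the other side. Its gene-start promoter was at 86.2%, 75.0%, 87.1% and 91.6% in mES cells and at 0%, 25.1%, 0% and 32.2% in HSPCs, a difference in means of -70.6 points. At the principal start the mES lists were at 100% and the HSPC lists at 33.1%, 25.1%, 100% and 77.8%, a mean of 59.0% against 100% with overlap. Of its whole span, mES peaks covered 40.1% to 43.0% and HSPC peaks 5.90% to 10.8%, so in HSPCs Esrrb carried broad H3K27me3 with little H2AK119ub. Zfp42 was at 31.5%, 25.1%, 25.1% and 25.1% in mES cells, a single small peak at the start, and at 0% in HSPCs. Dppa3 was at 100%, 100%, 47.8% and 67.5% in mES cells and at 0%, 0%, 0% and 9.45% in HSPCs.

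Prdm14 was at 100% in all 4 mES lists and at 92.8% to 100% in HSPCs, and Lin28a at 66.2% to 100% in mES cells and 100% in HSPCs, so both carried H2AK119ub in either cell type. Lin28a had it in mES cells with its nearest H3K27me3 peak 14.9 to 15.9 kb away. Nanog (25.1% to 34.8% in mES cells, 0% to 42.1% in HSPCs) and Tfcp2l1 (25.1% to 44.5% and 38.7% to 81.3%) overlapped between cell types. Over whole genes Pou5f1, Klf4 and Lin28a were higher in HSPCs without overlap (20.9% of all genes were) and Esrrb, Zfp42 and Dppa3 lower (20.5% were).

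Members with full H3K27me3 coverage in HSPCs were found in CpG-poor and CpG-rich classes. Of all promoters with an observed-to-expected CpG ratio under 0.3, 4.46% were fully covered in all 4 HSPC lists, and the member in that class, Pou5f1, was. In the class from 0.3 to 0.45 the share was 17.2%, and Nanog, Esrrb and Lin28a were fully covered while Dppa3 was not. In the class from 0.45 to 0.6 it was 21.3%, with Prdm14 full, Tfcp2l1 short of it in 1 list and Zfp42 bare. The 2 CpG-rich members, Sox2 and Klf4, were full in a class (0.8 and above) where 14.9% of promoters were. Across all genes Spearman's rho between the ratio and mean HSPC H3K27me3 coverage was 0.51, a description across genes, which are not independent replicates. Over the 10 members 7 were tied at 100%, so no such value is given for them.

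Other gene lists place these values. Of all promoters, 22.8% were non-overlapping and higher for H3K27me3 in HSPCs and 8.70% lower. Of 20 further genes of the pluripotency network, 13 were non-overlapping and higher for H3K27me3 in HSPCs and none lower, with a median difference of 75.8 points. Among those, chosen as examples after their values were seen, Sall4, Tdgf1 and Nr5a2 were at 0% in all mES lists and 100% in all HSPC lists, while Dppa2, Dppa4 and Dppa5a, germline and preimplantation genes, were at 0% in all 8 lists, as Zfp42 was in HSPCs. None of 8 genes of the later, primed pluripotent state and none of 12 Polycomb target genes of the germ layers was non-overlapping, and each Polycomb target was at 100% in all 8 lists. Of 12 widely expressed genes, 7 were non-overlapping and higher in HSPCs and B2m lower, with a median difference of 31.4 points, so partial gains in called H3K27me3 were also found outside the pluripotency lists. None of those 12 was fully covered in all 4 HSPC lists, against 7 of the 10 pluripotency genes.

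The labelled identities were checked with 10 HSPC marker genes. H3K27me3 was lower in HSPCs without overlap at markers that include Runx1, Spi1, Myb and Cd34 and higher at none. Over all promoters 8.70% were lower and 22.8% higher. Gata2, Tal1 and Gfi1 were at 100% in all 8 lists. Kit, the gene of the sorting marker, went the other way with overlap. Its mean was 27.5% in mES cells (0% to 44.5%) and 49.3% in HSPCs (38.4% to 66.2%). Mean HSPC coverage of the 10 marker promoters ran from 0% to 100% with a median of 22.6%, and from 11.2% to 100% with a median of 97.1% in mES cells.

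Loss of Tet2 in mES cells went with lower H2AK119ub promoter coverage at Pou5f1, Nanog and Dppa3 and higher coverage at Esrrb, each without overlap between 2 WT and 2 KO lists. Over all promoters 8.91% were lower and 10.2% higher in this way. Dppa3 differed most, from 100% in both WT lists to 47.8% and 67.5% in KO (57.6% ± 13.9, n = 2). The WT peak over it was 10.5 and 10.7 kb wide, and the widest KO peak touching the promoter 1.31 and 3.21 kb. Joining peaks within 1 kb of each other brought the KO promoters back to full coverage, since the KO lists had gaps of under 1 kb there.

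Nanog went from 32.0% and 34.8% in WT to 25.1% in each KO list, where 1 minimal peak was left, and its gene body from 10.2% and 12.0% to 0.504% and 0%. Pou5f1 was at 87.4% and 87.6% in WT and at 84.1% and 72.9% in KO, a difference of -9.00 points. Esrrb was at 86.2% and 75.0% in WT and 87.1% and 91.6% in KO, a gap of under 1 point between the nearest lists, and its principal start was at 100% in all 4. Over the whole gene the direction turned, to -1.14 points with overlap (41.6% ± 2.03 in WT, 40.4% ± 0.345 in KO, n = 2 each). Each of these 4 had p = 0.333 in the exact permutation test, the smallest possible with 6 assignments, and an adjusted p of 1.00. With WT 2 left out 8 members did not overlap, 4 higher and 4 lower, as did 37.7% of all promoters.

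Nanog and Dppa3 are neighbours, 81.1 kb apart, with starts near 122 Mb of chromosome 6 in a region where the KO mES lists were thinner for both marks. In the 250 kb on each side of the Nanog start, WT lists covered 26.9% and 27.7% for H2AK119ub and KO lists 15.0% and 13.2%. Of 48 10-kb bins with any H2AK119ub peak, 37 were lower in both KO lists than in both WT lists and 0 higher. For H3K27me3 the 4 lists covered 15.6%, 17.9%, 9.44% and 7.64%, and 19 of 25 bins with a peak were lower and 0 higher. In HSPCs the same window covered 14.8% and 13.0% in WT and 16.6% and 17.4% in KO for H2AK119ub, with 4 bins lower and 11 higher. HSPC H3K27me3 covered 16.9% and 18.2% in WT and 15.9% and 15.6% in KO, with 9 bins lower and 1 higher.

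The window is part of a larger one. Of the 630 promoters of chromosome 6 beyond 81 Mb, 23.2% were lower in KO mES cells for H2AK119ub without overlap, against 4.56% of the 482 promoters before that position and 8.92% on the other autosomes. For H3K27me3 the shares were 21.4%, 14.5% and 16.3%. Beyond 81 Mb 6.35% of promoters were higher for H2AK119ub, and the median difference was 0. The H2AK119ub differences at Nanog and Dppa3 therefore cannot be told apart from the wider excess of lower promoters on the distal chromosome. Gdf3, 16.3 kb from Dppa3 and a TGF-beta family gene of the same cluster, was also lower for both marks in KO mES cells without overlap.

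**Figure D3:**
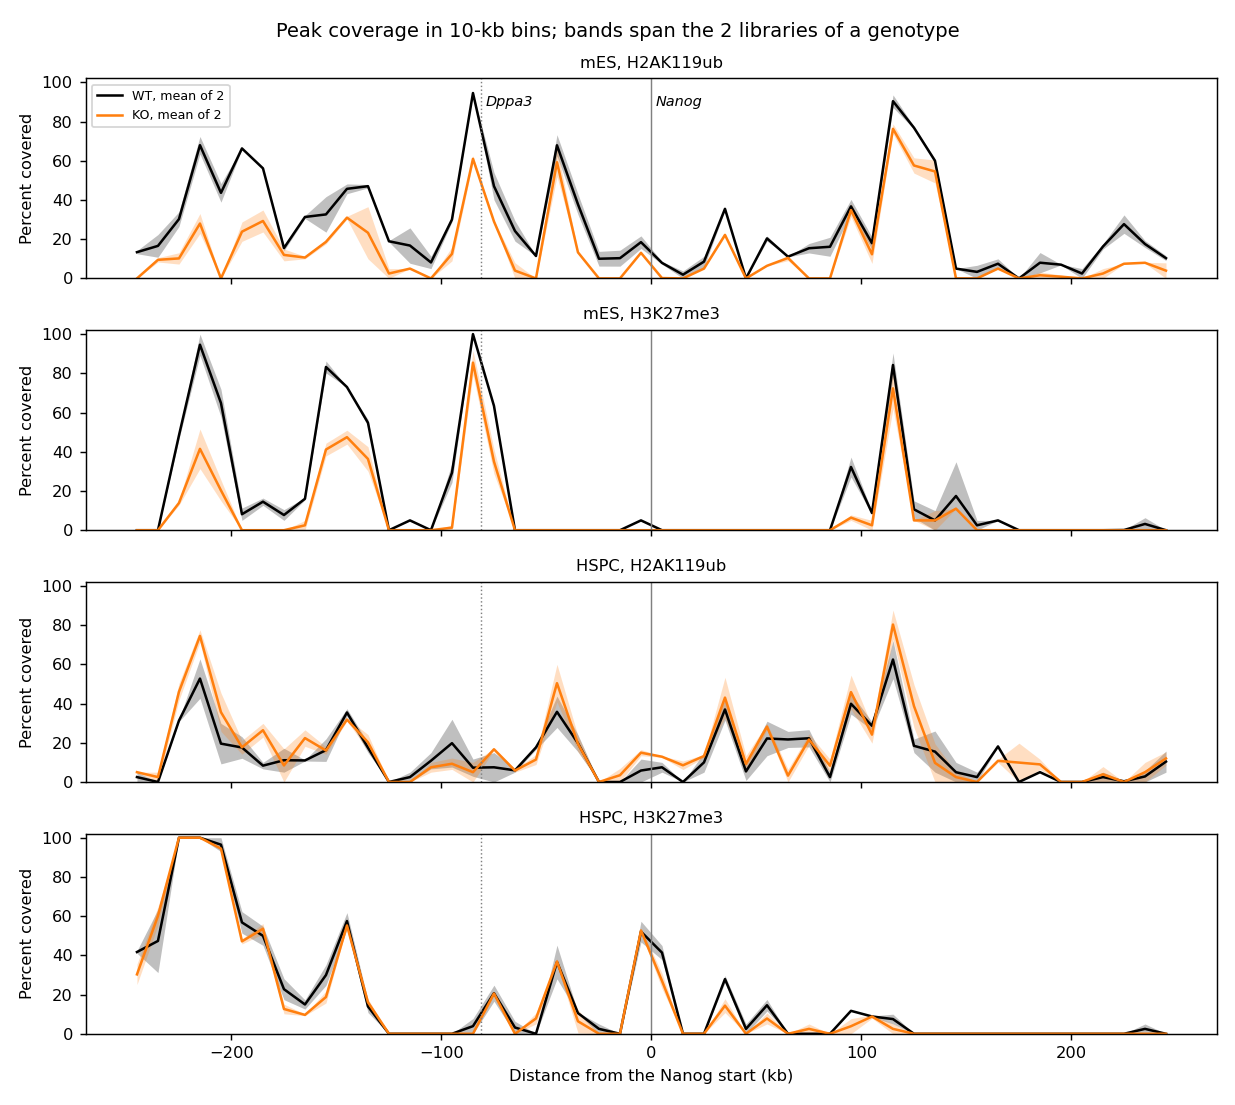
Percent covered in 10-kb bins (vertical axes) against distance from the Nanog start in kb (horizontal axis) for mES and HSPC lists of both marks; lines are the mean of 2 libraries, bands their range, black WT and orange KO, with the Nanog start as a solid and the Dppa3 start as a dotted vertical line. In mES cells 37 bins for H2AK119ub and 19 for H3K27me3 are lower in both KO libraries and 0 are higher, and in HSPCs 11 bins are higher for H2AK119ub.

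For H3K27me3 in mES cells, Klf4 and Prdm14 were lower in KO without overlap and no member was higher, against 16.0% lower and 1.90% higher over all promoters. Prdm14 went from 74.2% and 80.0% to 65.7% and 0% (77.1% ± 4.03 to 32.9% ± 46.5, n = 2 each), with the 0% in the shortest list. Klf4 went from 10.6% and 12.2% to 8.60% and 0%. With WT 2 left out 4 members did not overlap, 1 higher and 3 lower, as did 24.7% of all promoters. The share of members is close to the background, and Esrrb (85.2% and 100% in WT, 100% and 87.8% in KO) and Dppa3 (100% in all 4) did not separate. Over whole genes 3 members were lower in KO without overlap (21.5% of all genes were). Dppa3 was at 100% in both WT lists and at 82.5% and 76.7% in KO. Esrrb was at 37.0% and 41.4% in WT and 34.4% and 29.2% in KO. Prdm14 was at 21.4% and 24.0% in WT and 21.0% and 0% in KO.

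In HSPCs Nanog and Sox2 had more H2AK119ub promoter coverage in KO without overlap and no member had less, against 18.8% and 5.05% of all promoters. Nanog was at 16.4% and 0% in WT and 33.0% and 42.1% in KO, and its widest peak lay past the start in WT 1 and KO 2 and across it in KO 1. Sox2 was at 55.0% and 54.8% in WT and 100% and 64.9% in KO (54.9% ± 0.177 and 82.5% ± 24.8, n = 2 each), and with peaks within 1 kb joined the difference was 0. With WT 1 or KO 1 left out 5 members were higher without overlap in place of 2, where 35.5% and 28.7% of all promoters were.

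Over whole genes, H2AK119ub was higher in KO HSPCs without overlap for 5 members (19.0% of all genes were higher). Prdm14 went from 30.5% and 15.4% to 44.8% and 55.0% of its gene, Lin28a from 43.9% and 42.3% to 47.2% and 69.0%, Pou5f1 from 89.1% and 85.0% to 94.2% and 99.2%, Esrrb from 7.52% and 5.90% to 10.8% and 9.81%, and Dppa3 from 0% in both to 16.4% and 16.2%. At the principal start of Esrrb the WT lists were at 33.1% and 25.1% and the KO lists at 100% and 77.8%. The WT 2 list was the shortest, and the WT 1 list (171 Mb) lay between the KO lists (169 and 177 Mb).

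For H3K27me3 in HSPCs no member's promoter separated WT from KO, against 9.68% higher and 8.79% lower over all promoters, and 7 of them were at 100% in all 4 lists. With WT 1 left out 1 member was lower (19.5% of all promoters were), and with WT 2 left out 1 was higher (17.8% were). Over whole genes, Esrrb (67.6% and 69.3% in WT, 79.3% and 74.4% in KO) and Lin28a (71.9% and 68.1%, 82.6% and 86.8%) were higher (14.9% of all genes were) and Nanog and Prdm14 lower (18.4% were). Prdm14 was at 78.8% and 75.3% in WT and 71.9% and 72.1% in KO.

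**Figure D4:**
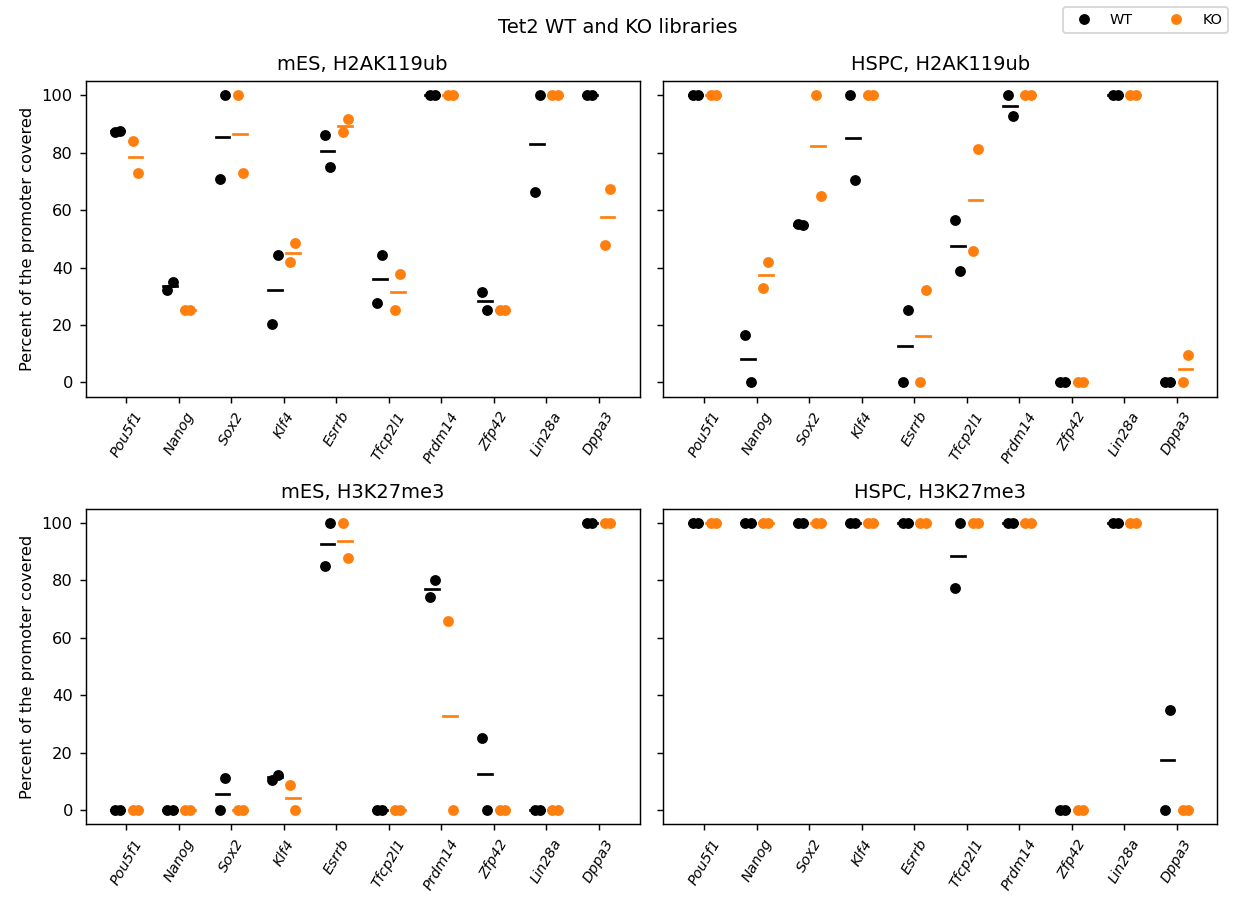
Percent of the promoter covered (vertical axes) for each of the 10 genes (horizontal axes) in WT (black) and KO (orange) libraries of each cell type and mark; points are libraries and bars the mean of 2. Dppa3 in mES H2AK119ub is at 100 in WT and at 47.8 and 67.5 in KO, Nanog is lower in KO in mES cells and higher in KO in HSPCs, and in HSPC H3K27me3 both genotypes are at 100 for 7 genes.

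The genotype difference in H2AK119ub at Nanog differed between cell types by 37.7 points, with p = 0.0556 in the two-sided exact permutation test, the smallest that 36 arrangements allow, and an adjusted p of 1.00 over all genes. The mES difference cannot be told apart from that of distal chromosome 6, and the difference between cell types no longer had the smallest p with peaks of at least 1 kb or with lists of equal peak number. The other 9 members had p from 0.167 (Dppa3, 47.1 points) to 1.00. For H3K27me3 the smallest p over the members was 0.333.

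In K562 cells H2AK119ub was sparse at the human counterparts. LIN28A (ENSG00000131914.11, chr1:26410817-26429728, plus strand) was the only one whose promoter was touched in all 4 lists, at 100% in each, against 25.3% of all promoters touched in all 4 and 1.91% full in all 4. PRDM14 was at 31.4% and 37.4% after siControl and 0% and 31.6% after siMBD6. NANOG was at 31.3% in siControl 2, TFCP2L1 at 13.9% in siControl 2 and KLF4 at 40.6% in siMBD6 1, each at 0% in the other 3 lists. The NANOG and KLF4 values depended on the start used. At its principal start, 1.61 kb away, NANOG was at 0% in all 4 lists. At its own, 0.713 kb away, KLF4 was at 25.1% in both siControl 1 and siMBD6 1. POU5F1, SOX2, ESRRB, ZFP42 and DPPA3 were at 0% in all 4.

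No member's promoter separated the siRNA groups, against 13.4% higher and 2.20% lower after siMBD6 over all promoters. With siControl 1 left out 3 members were lower, where 8.66% of all promoters were, and with siMBD6 2 left out 1 was higher and 1 lower, where 21.1% and 5.18% were. Over whole genes 4 members were higher after siMBD6 without overlap, beside 34.6% of all genes, so their share was close to the background. LIN28A went from 17.3% and 12.7% of the gene to 34.8% and 26.2%, and TFCP2L1 (chr2:121216587-121285202, minus strand) from 36.6% and 32.8% to 40.1% and 47.6%. NANOG went from 0% and 2.30% to 5.62% and 7.64%, and ESRRB from 4.47% and 4.00% to 4.66% and 6.21%. The siMBD6 lists were also longer, 178 and 190 Mb against 132 Mb for each siControl list, and the part of list length in these values was not tested.

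The 0% at POU5F1 (chr6:31164337-31180731, minus strand) says little about the gene. Its start lay in a stretch of chromosome 6 without any peak, 4.99, 3.60, 3.59 and 3.60 Mb long in siControl 1, siControl 2, siMBD6 1 and siMBD6 2, that held 156 to 183 protein-coding starts. The same lists held 64 to 95 peaks on alternate contigs, 5 to 10 of them on those of chromosome 6, and the part of these contigs in the 0% was not tested. The stretch around SOX2 was 1.71 to 3.00 Mb long with 1 to 6 starts, and that around DPPA3 3.15 to 76.0 kb.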

How the data were processed

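CUT&Tag peak positions, the unit of the deposited files, came as 1 list per library with start and end only and no score or count. Per the labels and methods, the authors used Trimmomatic 0.39 for trimming, Bowtie2 2.4.1 for alignment to mm10 or hg38, then duplicate removal and broad peak calling by MACS2, and the processing notes also name HOMER 4.9. Here, with Python 3.11.15, numpy 2.4.6, pandas 2.3.3 and scipy 1.17.1, the percent of each promoter (1 kb on each side of the GENCODE gene start) and of each gene under peaks was computed for all protein-coding genes. Groups of 2 libraries were compared by two-sided exact permutation tests (6 assignments, or 36 within genotype for cell types), with Benjamini-Hochberg adjustment over all genes. All 10 genes were computed in every comparison, and not all of them are named in each. The members and lists were chosen with earlier results of these data known. Alternatives were other windows, whole genes, the principal start, peaks of at least 1 kb, joined peaks, equal list lengths, a replicate block and leaving out each library. Lists were brought to equal length by keeping their first peaks in the order given. Whether that order ranks the peaks was not tested. The value of 1 marker gene is not reported here.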

Additional observations from a re-analysis of the deposited data

Results flagged for a closer look

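The H2AK119ub difference between Tet2 genotypes at the Nanog promoter differed between cell types by 37.7 points (exact permutation test, two-sided, p = 0.0556, the smallest that 36 arrangements allow, adjusted p = 1.00 over all genes). Coverage was 32.0% and 34.8% in WT and 25.1% in both KO lists in mES cells, and 16.4% and 0% in WT and 33.0% and 42.1% in KO in HSPCs. Over all genes, 645 promoters (2.94%) had non-overlapping genotype differences of opposite direction in the 2 cell types for this mark. The call was lost with peaks of at least 1 kb and with lists of equal peak number, and the mES difference cannot be told apart from that of distal chromosome 6.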

How the results depend on the processing

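Of 940 alternative values for single genes, 857 kept their call or lack of one, 63 gained a call and 19 lost one. In 1 the direction of a called difference reversed: Esrrb in mES H2AK119ub, 8.77 points at the promoter and -1.14 over the whole gene. Changes of sign at members without a promoter call were not counted as reversals. Klf4 in mES H2AK119ub, for example, went from 13.0 points at the promoter to -3.86 over the whole gene. TFCP2L1 in K562 went from -6.95 to 9.14 points and gained a call. The number of non-overlapping members moved by more than 1.5 times in the cases below, and the cause was not tested. With a promoter of 500 bp it was 2 in place of 4 for KO against WT in mES H2AK119ub (14.6% of all promoters). It was 1 in place of 2 in mES H3K27me3 (14.7%). With 2 kb on each side it was 1 in place of 2 in mES H3K27me3 (22.2% of all promoters). It was 1 in place of 0 in HSPC H3K27me3 (22.9%) and 3 in place of 0 in K562 (19.6%). Members with a promoter peak in every K562 list were 3 in place of 1 (30.7%). Over whole genes the number of non-overlapping members was 5 in place of 2 in HSPC H2AK119ub (28.4% of all genes). It was 4 in place of 0 in HSPC H3K27me3 (33.3%) and 4 in place of 0 in K562 (35.9%). For the difference of genotype effects it was 2 in place of 1 (H2AK119ub, 5.27%) and 1 in place of 0 (H3K27me3, 4.38%). With peaks of at least 1 kb it was 1 in place of 2 in mES H3K27me3 (9.16% of all promoters) and in HSPC H2AK119ub (17.3%). For the difference of genotype effects in H2AK119ub it was then 0 in place of 1 (1.53%), as it was with lists of equal length (2.69%). With peaks within 1 kb joined it was 1 in place of 2 in HSPC H2AK119ub (20.9% of all promoters). Counting a promoter only when at least 50% was covered left 5 of 10 members in mES H2AK119ub, and 32.4% of all promoters.

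Leaving out 1 library makes non-overlap easier for every gene, so the share of all promoters is given in brackets. Non-overlapping members were 5 to 8 in mES H2AK119ub (36.3% to 37.7%), with 8 without WT 2. In mES H3K27me3 they were 2 to 4 (24.5% to 28.3%), with 4 without WT 2. In HSPC H2AK119ub they were 2 to 5 (39.5% to 46.6%), with 5 without WT 1 or KO 1. HSPC H3K27me3 gave 0 to 1 (31.7% to 34.5%), with 1 without WT 1 or WT 2. K562 gave 0 to 3 (26.3% to 28.1%), with 3 without siControl 1 and 2 without siMBD6 2. Between cell types they were 5 to 6 for H2AK119ub (26.7% to 29.2%) and 8 to 8 for H3K27me3 (32.2% to 34.4%). For the difference of genotype effects they were 1 to 2 in H2AK119ub (2.56% to 3.61%), with 2 without HSPC KO 1. In H3K27me3 they were 0 to 0 (2.02% to 2.60%). Members with a promoter peak in every list were 10 to 10 in mES H2AK119ub (60.5% to 61.1%). In HSPC H2AK119ub they were 6 to 7 (59.5% to 64.1%). In mES H3K27me3 they were 2 to 4 (33.6% to 37.6%), with 4 without KO 2. HSPC H3K27me3 gave 8 to 8 (51.0% to 52.2%). K562 gave 1 to 2 (26.0% to 29.2%), with 2 without siMBD6 1. With the replicate block the count in K562 was 1 in place of 0. Deviations of same-numbered libraries had correlations of -0.05 to 0.03 across genes. Those values gave no sign of pairing but cannot exclude a shared culture, animal or run. Depth is unknown, and 2 libraries per group cannot reach p below 0.333.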
